A study of Mus musculus with 7 samples.

Results

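The chromatin regions described here were open in SST and in PV interneurons of the mouse cortex and less open in VIP interneurons. Of 323369 reference regions, 1647 (0.509%) were selected on their measured read counts. In each of the 4 SST and PV libraries they had at least 5 counts per 1000000 reads in regions (CPM), and the lowest of those 4 values was at least 2 times the higher of the 2 VIP values. The ATAC-Seq data, which count DNA cut by a transposase in open chromatin, came from 6 libraries, 2 for each cell type. Nuclei carrying the SUN1-2xsfGFP-6xMYC tag were purified from whole cortex of mice aged 6 to 12 weeks in which Cre was driven by Sst-IRES-Cre, Pv-Cre or Vip-IRES-Cre. The 3 groups therefore shared the tag allele and differed in the Cre driver, so a group could hold any cortical nucleus in which that driver had been active at some age. Each library came from a single animal, and the labels give the animals as male where the methods give both sexes. RNA was read in 1 further sample, single nuclei of the primary visual cortex of C57BL/6J mice aged 6 to 10 weeks that had received a library of AAV9 vectors.

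SST, PV and VIP cells are the major classes of cortical inhibitory interneuron. SST and PV cells arise in the medial ganglionic eminence of the embryo under the homeobox factors Nkx2-1 and Lhx6, with Sox6 and Satb1 acting downstream. VIP cells arise in the caudal ganglionic eminence and are marked by factors such as Prox1 and Nr2f2. Open regions far from gene starts are candidate enhancers, which can act on genes over long distances, so the nearest gene is a label of position and not a proven target.

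The central 300 bases of 6 of the regions are printed as picked examples and do not stand for all 1647. The regions near Sptlc3, Xpo1 and Oprd1 had no VIP read in either library. Those near Nkx2-1 and Bcl11b lie by genes that were listed here as medial eminence regulators, and the one in an intron of Klf7 had the third highest conservation of all 1647. Sequences are GRCm38 (mm10), plus strand, from the RefSeq assembly, and capitals mark matches to any of 13 motifs searched on both strands.
Sptlc3, chr2:139069645-139069944: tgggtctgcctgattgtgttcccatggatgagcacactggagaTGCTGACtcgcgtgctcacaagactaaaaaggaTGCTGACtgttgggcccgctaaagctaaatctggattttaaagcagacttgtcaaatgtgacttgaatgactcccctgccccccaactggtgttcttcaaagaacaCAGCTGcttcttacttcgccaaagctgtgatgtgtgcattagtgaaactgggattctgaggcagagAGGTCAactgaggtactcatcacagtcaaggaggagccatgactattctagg
Xpo1, chr11:23141648-23141947: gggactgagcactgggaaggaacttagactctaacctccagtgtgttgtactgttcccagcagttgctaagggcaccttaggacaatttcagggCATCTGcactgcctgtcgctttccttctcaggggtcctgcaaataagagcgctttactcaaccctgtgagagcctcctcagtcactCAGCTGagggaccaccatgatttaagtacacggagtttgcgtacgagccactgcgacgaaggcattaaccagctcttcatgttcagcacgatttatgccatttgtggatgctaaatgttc
Oprd1, chr4:132137210-132137509: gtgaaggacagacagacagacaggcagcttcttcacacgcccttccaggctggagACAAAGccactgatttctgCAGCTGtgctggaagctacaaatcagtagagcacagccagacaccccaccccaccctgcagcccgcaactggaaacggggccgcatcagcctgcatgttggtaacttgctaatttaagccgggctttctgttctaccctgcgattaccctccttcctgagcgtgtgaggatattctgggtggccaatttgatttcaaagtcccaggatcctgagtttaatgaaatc
Nkx2-1, chr12:56572111-56572410: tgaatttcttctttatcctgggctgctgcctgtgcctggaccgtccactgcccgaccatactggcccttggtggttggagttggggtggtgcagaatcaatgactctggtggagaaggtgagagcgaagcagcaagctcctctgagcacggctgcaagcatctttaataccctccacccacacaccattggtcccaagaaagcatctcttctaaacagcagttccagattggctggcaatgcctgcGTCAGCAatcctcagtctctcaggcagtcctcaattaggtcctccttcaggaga
Bcl11b, chr12:107930788-107931087: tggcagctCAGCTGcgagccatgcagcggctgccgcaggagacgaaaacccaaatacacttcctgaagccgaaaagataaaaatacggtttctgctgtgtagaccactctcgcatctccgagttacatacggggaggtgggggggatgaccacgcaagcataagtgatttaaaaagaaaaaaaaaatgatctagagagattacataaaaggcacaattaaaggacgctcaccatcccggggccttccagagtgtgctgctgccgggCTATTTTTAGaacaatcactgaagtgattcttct
Klf7, chr1:64066873-64067172: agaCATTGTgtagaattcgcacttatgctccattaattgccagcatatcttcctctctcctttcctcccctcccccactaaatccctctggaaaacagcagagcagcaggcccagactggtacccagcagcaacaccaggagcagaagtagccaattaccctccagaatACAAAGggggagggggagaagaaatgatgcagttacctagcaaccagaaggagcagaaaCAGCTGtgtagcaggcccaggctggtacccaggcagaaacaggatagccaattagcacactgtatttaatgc

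The labels held at the loci of the driver genes. Regions within 50 kb of the Sst start summed to 52.5 and 56.3 CPM in the SST libraries, 29.0 and 34.4 in PV, and 24.3 and 23.7 in VIP. Regions by Pvalb summed to 33.6 and 45.5 CPM in PV against 13.9 to 19.9 in the other 4 libraries, and regions by Vip to 23.3 and 27.3 CPM in VIP against 4.43 to 5.77. The library totals were 1801883 to 2256073 reads in regions, so that 5 CPM stood for 9.01 to 11.3 reads. Regions by marker genes of other cells had reads in all libraries, and the source of these reads was not tested: regions by 13 astrocyte and oligodendrocyte genes summed to 333 and 311 CPM in SST, 390 and 399 in PV and 385 and 374 in VIP, and regions by 13 excitatory neuron genes to 464 to 491 CPM over all 6. None of the marker loci summed to 0. Regions by the oligodendrocyte gene Mbp were unequal, at 101 to 129 CPM over the SST and PV libraries and 71.5 and 80.9 in VIP, as were those by the astrocyte gene Aqp4, at 15.1 to 19.8 against 8.94 and 10.3. Those by the excitatory genes Neurod6 and Slc17a7 were at 28.3 to 39.7 against 23.8 and 19.7, and at 16.6 to 24.9 against 13.4 and 11.2. By Mog, Slc1a3 and Gja1 the SST and PV values overlapped the VIP values. Of the 1647 regions, 5 lay nearest to an astrocyte or oligodendrocyte gene (Gja1, Aqp4, Mbp, Pdgfra and Mobp) and 1 to an excitatory neuron gene (Fezf2), 0.304% and 0.0607% against 0.110% and 0.119% of all reference regions, and the part of other cells in the regions was not tested.

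A typical region of the 1647 was open at about the same level in SST and PV. The median was 11.5 and 11.1 CPM in the SST libraries, 12.7 and 11.7 in PV, and 1.99 and 1.79 in VIP. The VIP values are low by the rule itself and are a description. In reads, the medians were 22, 25, 25 and 21 in SST and PV and 4 in each VIP library, so counting error alone is wide for any one region. Fewer nuclei with an open region and less opening per nucleus cannot be told apart in pooled nuclei.

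**Figure D1:**
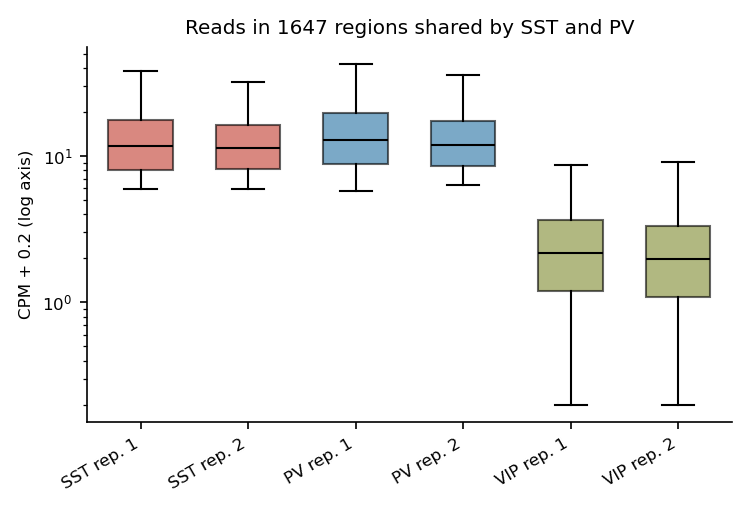
Accessibility of the 1647 regions in each of the 6 libraries, as CPM plus 0.2 on a log axis. Boxes show quartiles and the median, whiskers the 5th and 95th percentiles; the VIP boxes lie below the SST and PV boxes because the rule asked for it.

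The authors' own peak lists gave a second reading of the same libraries. Peaks were called on the same reads that the rule used. Higher shares in SST and PV than in VIP were thus favoured by the rule and are a description. Of the 1647 regions, 1462 overlapped a peak in all 4 SST and PV lists. In the VIP lists, 868 overlapped no peak, 294 a peak of 1 library and 485 a peak of both. In single lists, the share of the regions with a peak was 93.4% to 94.96% over SST and PV and 34.2% and 42.6% in VIP, against 13.7% to 16.1% of all reference regions. The latter include 175009 regions with a mean under 1 CPM. The authors' 0 or 1 marks per region differed from the peak lists in every library, and most in VIP replicate 1: 894 of the 1647 (54.3%) were marked in VIP replicate 1, against 23.1% of all regions, and 688 (41.8%) in VIP replicate 2, against 15.4%. Over SST and PV, 93.2% to 96.1% were marked. By the peak lists, the regions were not uniformly closed in VIP nuclei, and 727 had a peak in every SST and PV library and in no VIP library.

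The regions ranged from a full absence of VIP reads to values close to the threshold. In 28 of them neither VIP library had a read. In 150 the lowest SST or PV value was at least 10 times the higher VIP value, in 466 at least 5 times, and in 756 less than 3 times. Only 133 had a lowest SST or PV value of 20 CPM or more, and in 1095 it was under 10 CPM.

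The 12 regions with the largest ratio, after adding 0.5 CPM to both sides, had at most 1 VIP read in a library. The first lay in an exon of Ankrd31, nearest to the start of Gcnt4, a glycosyltransferase gene (chr13:96878461-96879175). It had 19.4 and 17.3 CPM in SST, 22.9 and 17.8 in PV and 0 in both VIP libraries. The region on chromosome 2 nearest to Sptlc3, a subunit gene of serine palmitoyltransferase, was 424 kb from that start and read 18.4, 16.8, 24.4 and 21.1 CPM in SST and PV and 0 in VIP. The SST and PV values overlapped in the first region, and in the second both PV values lay above both SST values.

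The intronic region of Oprd1, the gene of the delta opioid receptor, had 11.02 and 13.7 CPM in SST, 11.2 and 10.5 in PV and 0 in VIP (chr4:132136964-132137756). The region 114 kb from Xpo1, a nuclear export receptor gene, had 21.5 and 11.1 CPM in SST and 14.2 and 11.7 in PV, again with no VIP read. A region 105 kb from Ldah, a lipid droplet hydrolase gene, had 22.6 and 33.2 CPM in SST, 18.8 and 16.1 in PV and 0.496 and 0 in VIP. Fat3, which codes for an atypical cadherin, had the nearest start, 469 kb away, to a region with 8.40 and 8.86 CPM in SST, 14.7 and 17.2 in PV and 0 in VIP. The remaining 6 of the 12 were nearest to AC124108.1, Zc3h12a, Rps15a, Dync2h1, Dusp22 and Olfr1507, and in each of them every SST and PV value was at least 7.21 CPM and every VIP value under 0.5 CPM. SST minus PV was not called for any of the 12 (edgeR quasi-likelihood test, adjusted p from 0.17 to 1.00), against 8.29% of all regions tested. Ranking on the lowest SST or PV value favours regions alike in SST and PV, so this is a description.

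**Figure D2:**
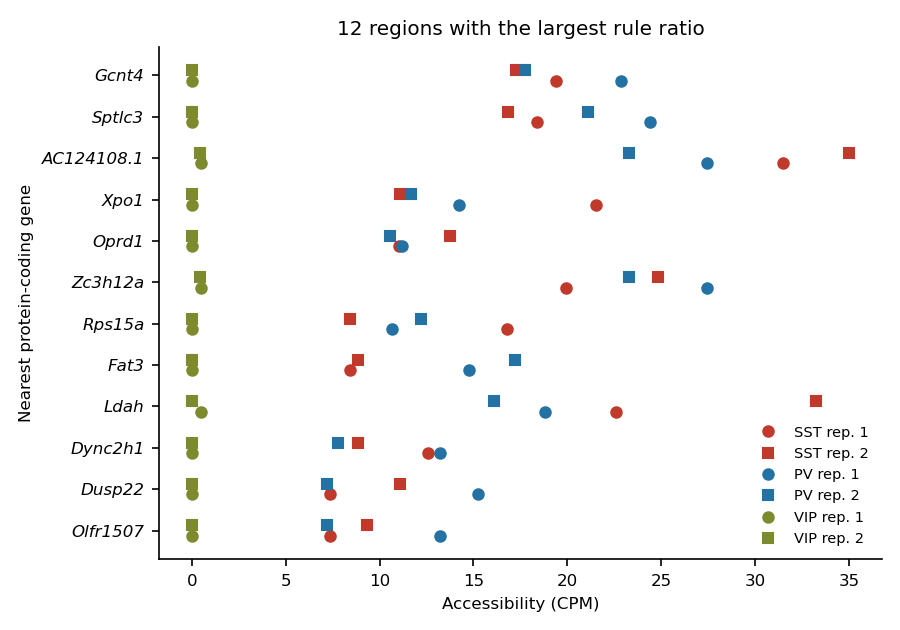
CPM in each library of the 12 regions with the largest ratio, labelled by the nearest protein-coding gene. Circles are replicate 1 and squares replicate 2; VIP points lie at or near 0, and SST and PV points are spread from 7.21 to 35.0.

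At the threshold the separation was slight. Just inside, a region in Med12l nearest to Igsf10 had 21.0 and 32.4 CPM in SST, 15.3 and 21.6 in PV and 7.45 and 7.60 in VIP, a ratio of 2.01. The next 4 lay nearest to Nek10, Jag1, Selenok and Gja1, at ratios of 2.01. Just outside, a region by Gpr149 had 52.5 and 41.7 CPM in SST, 52.9 and 51.1 in PV and 20.9 and 18.3 in VIP, a ratio of 2.00. Regions by Ate1, Il20ra, Lep and Klf6 followed, at 1.98 to 2.00.

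How far the choice holds from one animal to the next was read by applying the rule to the replicate 1 libraries alone and looking at the replicate 2 libraries, and the reverse. The rule chose 5509 regions in replicate 1, of which 1912 (34.7%) also met it in replicate 2, where 1.08% of all reference regions did. In the replicate 2 libraries those 5509 regions had medians of 8.86 CPM in SST, 11.1 in PV and 3.13 in VIP. Of 3478 regions chosen in replicate 2, the same 1912 (55.0%) met the rule in replicate 1, where 1.70% of all regions did, and the medians there were 8.92, 9.92 and 2.48 CPM. The lower of the SST and PV values exceeded the VIP value in the unused libraries for 84.0% and 90.9% of the chosen regions, against 35.1% and 34.6% of all regions. All reference regions include 175009 with a mean under 1 CPM, which cannot reach the floor of 5 CPM. Regions already chosen as open were thus favoured over them in advance, and these shares are a description. Of the 18973 regions with all SST and PV values at 5 CPM or more, 8.68% were among the 1647. The VIP medians in unused libraries lay above the 1.99 and 1.79 CPM of the 1647, which were chosen on all 6 libraries. Of the 6 libraries left out one at a time, SST replicate 2 moved the number of regions most: without it the rule kept 3200.

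Within the 1647, SST and PV were then set side by side. The rule used the same 4 values and removed regions with a low value in either cell type, which limits how far the 2 can differ, so the counts below are a description. With edgeR's quasi-likelihood test on all regions, 87 of 1647 (5.28%) passed an adjusted p of 0.05, 34 higher in SST and 53 higher in PV, against 8.29% of the 40338 regions tested (3.96% higher in SST and 4.33% lower). The median SST minus PV difference was -0.13 on the log2 scale in the 1647 and -0.01 over all regions tested. The size of the difference was under 1 on the log2 scale in 1465. The count depended on single animals: it was 14 without PV replicate 1, 26 without PV replicate 2 and 217 without SST replicate 1, where 1.46%, 1.91% and 15.2% of all regions tested were called. DESeq2 called 13 of the 1509 to which it gave an adjusted p, with 131 under an unadjusted p of 0.05, and 1.55% of all 27825 such regions. With no filter on low counts edgeR called 0 of the 1647 and 0 of all 310118 regions, with 275 of the 1647 under an unadjusted p of 0.05.

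The 5 regions with the largest difference in each direction, picked after their values were seen, all had under 4 CPM in both VIP libraries. The region nearest to Bnc2, a zinc finger gene, had 6.30 and 5.32 CPM in SST and 48.8 and 31.6 in PV, and read 2.48 and 1.79 in VIP. Its SST minus PV difference was -2.79 ± 0.38 (SE, n = 2 libraries a group; edgeR adjusted p = 0.00109). The region nearest to Pdgfc, a growth factor gene, had 5.77 and 7.54 CPM in SST, 45.8 and 30.5 in PV and 0 in both VIP libraries (-2.50 ± 0.38, edgeR adjusted p = 0.00212). In these 2 regions the PV values were all above the SST values, and the SST values sat just over the 5 CPM floor.

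In the other direction, the region nearest to Cbln4, which codes for a secreted synaptic organiser, had 42.0 and 57.6 CPM in SST and 11.7 and 7.77 in PV, with 0.496 and 0 in VIP (2.35 ± 0.36, edgeR adjusted p = 0.00187). The region nearest to Insc, a gene of spindle orientation, had 48.8 and 45.7 CPM in SST, 9.66 and 8.88 in PV and 0.993 and 0.447 in VIP (2.34 ± 0.33, edgeR adjusted p = 0.00112). The other 6 lay nearest to Vmn1r217, Oacyl and Peli2, higher in PV, and to Tmod3, Dcp2 and Masp1, higher in SST. For the contrast of VIP with the mean of SST and PV, which is the contrast of the rule, all 1647 passed (48.9% of all regions tested, 24.0% lower in VIP), as the choice fixed.

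By position the 1647 regions were mostly distal. They held the start of a protein-coding gene in 8.38%, overlapped an exon in 14.6%, lay in an intron in 37.2% and outside genes in 39.8%. The median distance from the region's centre to the nearest start was 48.7 kb, with quartiles of 14.0 and 130 kb, and 16.3 kb to the start of any annotated gene. The share at a start moved with the rule, to 16.1% at a floor of 10 CPM and 4.04% at 3 times the higher VIP value. All reference regions lay in the same places at 4.12%, 12.5%, 35.6% and 47.8%, with a median of 59.2 kb. Regions chosen by the same rule with the cell types exchanged were distal too. PV and VIP without SST gave 233 regions, with 3.00% at a start and a median of 55.1 kb, and SST and VIP without PV gave 351, with 12.3% and 39.0 kb. The 15433 regions with all 6 values at 5 CPM or more stood apart, with 54.7% at a start and a median of 0.271 kb. No test was run on these shares, since neighbouring regions share reads and sequence.

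The regions were spread widely. They lay nearest to 1368 protein-coding genes, and neighbours on a chromosome were a median of 653 kb apart. Within 100 kb of each other, 458 regions formed 206 groups, the largest of 6. They were a median of 806 bases wide with a GC content of 49.1%, and 11.2% of their bases were repeats, against 673 bases, 48.0% and 20.0% for all reference regions. None of them overlapped any of the 287 elements that the study screened. Such elements are a small share of the 323369 reference regions, so a count of 0 says little about the 1647. The study took them from 36215 regions with a mean phyloP conservation score over 0.5, ranked by SST signal over PV and VIP. Of the 1647, 273 exceeded that cutoff. The cause of the absence of overlaps was not tested.

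Conservation was read as the authors' mean phyloP, a score that is above 0 where bases changed more slowly in placental mammals than under neutral drift. The median over the 1647 regions was 0.124, with quartiles of 0.0147 and 0.370, and 273 of them (16.6%) exceeded 0.5. Over all reference regions the median was 0.0642 and 11.2% exceeded 0.5. The other classes had medians of 0.192 (PV and VIP), 0.161 (SST and VIP) and 0.196 (all 6 values at 5 CPM). Of the 1647, the 240 that overlapped an exon had a median of 0.337, those outside genes 0.122, the 138 at a start 0.137 and those in introns 0.0815. Among regions outside genes, 17.4% of the 656 exceeded 0.5, against 7.99% of all reference regions outside genes. Among intronic ones the shares were 9.46% and 7.56%, and among those over an exon 30.8% and 31.0%. More than 2 kb from a start, 15.5% of the regions exceeded 0.5, against 20.6% of the regions open in all 6 libraries and 10.5% of all reference regions.

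**Figure D3:**
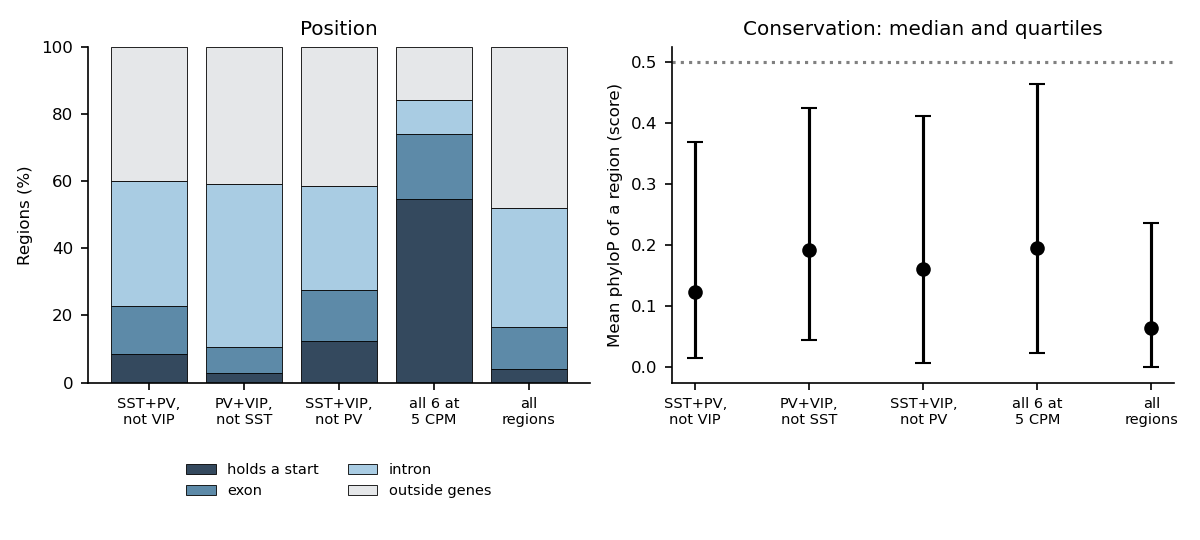
Left, percent of regions that hold a gene start, overlap an exon, lie in an intron or lie outside genes; right, median (point) and quartiles (bars) of the regions' mean phyloP score, with the 0.5 cutoff dotted. The 1647 regions (first column) had 8.38% at a start and a median phyloP of 0.124, between those of all regions and of the regions open in all 6 libraries.

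The 5 most conserved of the 1647 lay by transcription regulators and other genes, far from their starts. An intronic region of Zfp521, a zinc finger gene, had the highest mean phyloP, 1.97, at 185 kb from the start. Its values were 19.9 and 15.5 CPM in SST, 14.7 and 7.77 in PV and 1.49 and 2.68 in VIP. A region 544 kb from Rnf144a, which codes for a ubiquitin ligase, followed at 1.86, and an intronic region of Klf7, a Krüppel-like factor gene, at 1.79. The Klf7 region, whose sequence is printed above, had 14.7 and 14.6 CPM in SST, 9.15 and 7.77 in PV and 2.48 and 2.24 in VIP. A region in an exon of Cntln, nearest to Sh3gl2, scored 1.73, and an intronic region of Zfp423, a zinc finger factor gene, scored 1.69. The Zfp423 region was the most open of the 5, at 36.2 and 53.2 CPM in SST, 29.0 and 20.0 in PV and 3.48 and 5.36 in VIP. All 5 had VIP reads in both libraries.

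Short motifs in the central 300 bases were counted in the same classes. CAGCTG, an E-box bound by basic helix-loop-helix factors, was present in 42.7% of the 1647 regions and 26.3% of all reference regions. It was present in 58.4% of the PV and VIP regions and 47.9% of the SST and VIP regions, so that its share was above that of all regions in each of these classes, and in 22.7% of the regions open in all 6 libraries. Counting only regions over 2 kb from a start, the shares were 45.1% (the 1647), 34.5% (open in all 6) and 26.7% (all regions). TGANTCA, the site of AP-1 factors, was present in 20.6% of the 1647, 15.9% and 17.1% of the other 2 classes and 13.03% of all regions. TGCTGAC was present in 11.4%, against 16.3% of the PV and VIP regions, 6.84% of the SST and VIP regions and 7.27% of all regions.

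The SOX motif ACAATG was present in 6.62% of the 1647, and in 13.3%, 16.5% and 12.9% of those classes in the same order. AGGTCA, a core site of nuclear receptors, was present in 11.1%, against 26.6%, 5.41% and 15.2%. In the regions open in all 6 libraries, of which 54.7% held a start, both shares were lower than in the 1647, at 5.61% for ACAATG and 9.25% for AGGTCA. That order did not hold away from starts. Counting only regions over 2 kb from a start, ACAATG was in 6.90% (the 1647) and 8.04% (open in all 6). AGGTCA was then in 11.08% and 11.02%. The SP site GGGCGG, common at gene starts, was present in 14.8%, against 60.7% of the regions open in all 6 libraries and 10.9% of all regions. TAATTA, read by homeobox factors such as those of the LIM and Dlx families, was present in 5.34% and 4.91%. The other 6 motifs were CAGATG (34.2% of the 1647 and 30.7% of all regions), ACAAAG (15.3% and 19.9%), CACGTG (7.59% and 5.39%), the MEF2 motif (4.25% and 4.05%), TGACGTCA (1.03% and 0.479%) and the NFI palindrome (0.304% and 0.110%). In whole regions the lower shares did not all stay lower: ACAATG was present in 27.3% of the 1647 and 30.03% of all regions, AGGTCA in 34.3% and 34.1%, and ACAAAG in 45.7% and 44.4%. The windows are then unequal, since the 1647 had a median width of 806 bases against 673, and what width adds was not tested. A match is a description of letters and shows no binding. Of the printed sequences all but that of the Nkx2-1 region hold CAGCTG, but they were picked, and the share in the 1647 was 42.7%. Of the Bcl11b regions only the printed one holds it in its central 300 bases.

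The regions were not spread over the chromosomes as other open regions were. Chromosome 13 held 155 of the 1647 (9.41%), against 4.94% of all reference regions and 4.73% of the regions with all SST and PV values at 5 CPM or more. Chromosome 18 held 94 (5.71%, against 3.81% of the latter) and chromosome 3 held 136 (8.26%, against 5.89%). Chromosome 17 held 23 (1.396%, against 3.26%), chromosome 16 held 29 (1.76%, against 2.93%), chromosome 7 held 48 (2.91%, against 5.09%) and chromosome X held 9 (0.546%, against 2.37%).

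Reads outside the 1647 regions moved in the same direction on several of these chromosomes. Chromosome 13 took 5.00%, 4.97%, 5.20% and 4.99% of them in SST and PV and 4.06% and 4.09% in VIP. Chromosome 16 took 2.82% to 3.11% in SST and PV and 3.49% and 3.604% in VIP, and chromosome 17 took 2.63% to 2.84% against 3.47% and 3.23%. The SST and PV values did not overlap the VIP values on these 3 chromosomes. Nor did they overlap on chromosomes 3, 6, 7, 8, 9, 11, 12, 14, 15, 18 and Y. Chromosome 7, for one, took 3.99% to 4.46% in SST and PV and 5.16% and 4.91% in VIP. On chromosomes 1, 2, 4, 5, 10, 19 and X the values overlapped. Chromosome X took 1.67% to 1.83% in SST and PV and 1.68% and 1.73% in VIP. In 175009 regions with a mean under 1 CPM, the chromosome 13 share was likewise 5.11% to 5.36% in SST and PV and 4.44% and 4.50% in VIP. When each chromosome was scaled to the same share of reads outside the 1647 in every library, an alternative chosen after seeing the data, the rule kept 1614 regions, 1525 of them among the 1647, and chromosome 13 held 103 (6.38%). What the shift of whole chromosomes contributes to other comparisons was not tested.

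**Figure D4:**
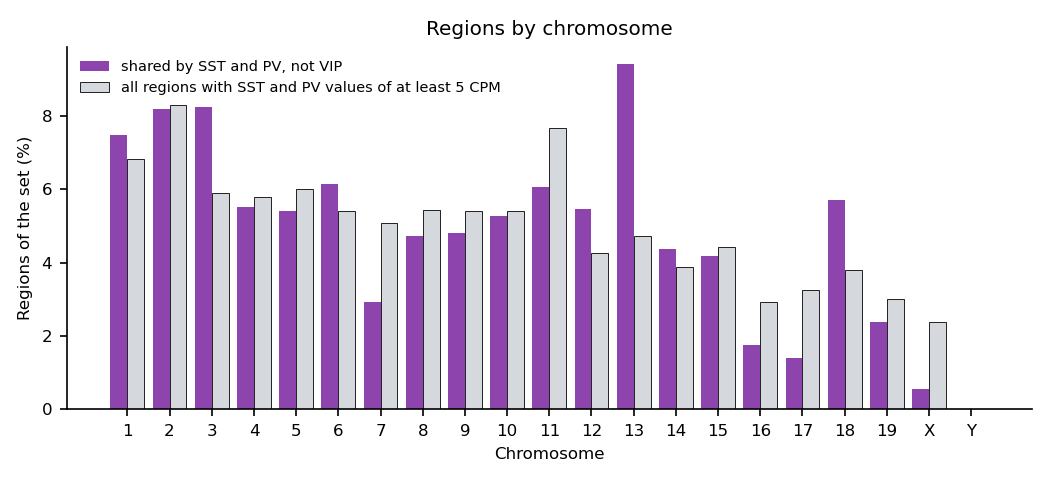
Percent of the 1647 regions (purple) and of all regions with SST and PV values of at least 5 CPM (grey) on each chromosome. Chromosome 13 stands at 9.41% against 4.73%, and chromosomes 7, 16, 17 and X are below the grey bars.

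By nearest gene, 227 genes had 2 or more of the regions and 45 had 3 or more. Iqgap2, which codes for a scaffold protein, and Mycn, a transcription factor gene, had 5 each, and Bcl11b, Celf4 and Zfp608 had 4. These genes were nearest to very different numbers of reference regions, 44 for Iqgap2, 81 for Mycn, 83 for Bcl11b, 315 for Celf4 and 192 for Zfp608. The Iqgap2 regions lay on chromosome 13, and 3 of them were inside the neighbouring gene Sv2c, which codes for a synaptic vesicle protein. The strongest of the 5 lay in an intron of Iqgap2, at 26.8 and 26.2 CPM in SST, 13.7 and 12.8 in PV and 0 and 2.24 in VIP. Of the Mycn regions, 2 overlapped each other and so shared reads, and the stronger of them had 32.5 and 31.5 CPM in SST, 42.7 and 42.2 in PV and 8.44 and 5.81 in VIP. Among genes with 3 regions, Bcl11a, Bcl9, Bdnf, Bmper and 4930412O13Rik come first by name.

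The medial eminence regulators accounted for 12 of the 1647 regions (0.729%), nearest to 6 of the 14 genes listed, and for 0.313% of all reference regions. They accounted for 0.429% of the PV and VIP regions and 0.570% of the SST and VIP regions, so these shares also lay above that of all regions. In the regions open in all 6 libraries the share was 0.175%. Lhx6 had 3. The region at its start had 20.5 and 14.2 CPM in SST, 11.2 and 20.0 in PV and 0.496 and 0.447 in VIP (chr2:36105106-36105881), and it overlapped a second one over an exon with 13.1, 13.3, 7.63 and 8.32 CPM in SST and PV. The third, over an exon 13.8 kb from the start, had 11.02 and 13.3 CPM in SST, 9.66 and 13.3 in PV and 0.993 and 0 in VIP. Satb1, which codes for a chromatin organiser, had a region over an exon with 5.77 and 7.54 CPM in SST, 8.14 and 7.21 in PV and 0 in VIP, and a second 153 kb away.

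Nkx2-1, the factor that specifies the medial eminence, had 1 region 35.4 kb away with 12.1 and 8.86 CPM in SST, 6.61 and 9.43 in PV and 0 and 0.894 in VIP. Bcl11b, a zinc finger factor gene, had 4 of the 12 regions, the most of any gene on the list. The intronic one printed above had 11.02 and 7.98 CPM in SST and 28.5 and 21.6 in PV, and was called higher in PV (-1.41 ± 0.36, edgeR adjusted p = 0.0221). Lhx8 had 1, inside the neighbouring gene Slc44a5. The caudal eminence regulators had 2 regions (0.121%, against 0.244% of all reference regions), nearest to Nfia and Nr2f2.

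Marker genes of the mature cell types were seldom nearest. The SST and PV marker list had 3 regions (0.182%, against 0.293% of all reference regions), by Syt2, Reln and Tac1, and none by Sst or Pvalb. The VIP and caudal eminence marker list also had 3, by Lamp5, Npy2r and Cnr1, against 0.279% of all regions. The region 113 kb from Npy2r, a neuropeptide Y receptor gene, had 7.87 and 19.9 CPM in SST, 45.8 and 36.1 in PV and 1.99 and 0.894 in VIP, and was called higher in PV (-1.52 ± 0.38, edgeR adjusted p = 0.0193). The perineuronal net list had 1 (0.0607%, against 0.136% of all regions), at the start of Vcan.

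Potassium channel genes had 12 regions by 11 of 39 genes (0.729%, against 0.666% of all regions). They were Kcna1 with 2 and Kcna5, Kcna6, Kcnab2, Kcnb2, Kcnc4, Kcnma1, Kcnn2, Kcnq3, Kcns3 and Kcnt1 with 1 each. The most open one nearest to Kcnc4, a fast potassium channel gene, lay in Slc6a17 and had 39.9 and 35.0 CPM in SST, 37.1 and 30.0 in PV and 4.96 and 8.94 in VIP. Kcna1, Kcna5 and Kcna6 lie together on chromosome 6, and 4 of the regions were in that cluster. Adhesion and guidance genes had 18 regions by 12 of 68 genes (1.09%, against 2.19% of all regions), of which Slit2 and Slit3, genes of axon guidance ligands, had 3 each and Cdh4 and Nxph1 had 2 each. The Cdh8 region, 1449 kb from that cadherin gene, had 44.6 and 47.9 CPM in SST and 15.8 and 17.8 in PV with 0.993 and 4.92 in VIP (1.46 ± 0.34, edgeR adjusted p = 0.0154). One of the Slit3 regions was also called higher in SST, at 13.1 and 27.5 CPM against 7.12 and 6.66 in PV (1.57 ± 0.43, edgeR adjusted p = 0.0312). Glutamate and GABA receptor genes had 4 (0.243%, against 0.641%), by Gria1, Gria3, Grm3 and Gabrg1.

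RNA was read in nuclei grouped by transcripts of the 3 driver genes. There were 505 Sst, 509 Pvalb and 360 Vip nuclei, holding 618980, 710297 and 333852 unique transcripts (UMIs), and the median per nucleus was lowest in Vip nuclei, at 587 to 897 over the 10 libraries against 861 to 1508 in Sst and 1136 to 1539 in Pvalb nuclei. Of 34958 barcode names in the 10 libraries, 9663 occurred in more than 1. Lhx6 was at 71.1 and 52.1 UMIs per 1000000 (RNA CPM) in Sst and Pvalb nuclei and had no UMI in Vip nuclei, where 3 UMIs would be 8.99 RNA CPM and the exact 95% interval reaches 11.05, and Prox1 was at 1.62, 4.22 and 294. Slc17a7, a gene of excitatory neurons, was at 54.9, 77.4 and 123, and the source of those UMIs was not tested. The methods give 2 animals with 5 libraries each, which the labels hold as 1 sample, and the sums run over both. No test was run, and intervals below are exact Poisson ones that cover counting error only.

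Genes nearest to the 1647 regions were, at the median, slightly higher in Sst and Pvalb nuclei. Of 1368 genes, 569 had at least 50 UMIs over the 3 groups. Their median log2 ratio of the mean of Sst and Pvalb to Vip was 0.16, with quartiles of -0.32 and 0.61, against 0.07 over the 6351 genes nearest to any region. In 38 of the 569 (6.68%) the lower of Sst and Pvalb was at least 2 times Vip, against 3.75% of those 6351. In the libraries of the first set of 5 the median was 0.09 and the share 7.86%, against 0.04 and 3.91% of genes nearest to any region, and in the second set 0.16 and 10.98%, against 0.08 and 5.49%. In 36 (6.33%, against 4.16%) Vip was at least 2 times the mean of Sst and Pvalb. The median was 0.12 for genes nearest to the PV and VIP regions, of which 7.14% passed the same ratio, and -0.18 for the SST and VIP regions, of which 4.14% did. In splits made after seeing the data, the median was 0.26 for the 108 genes with 2 or more of the regions and enough UMIs, of which 33 were below 0, and 0.93 for the 20 genes with 3 or more, of which 2 were. Of all 569 genes 229 (40.2%) were below 0, and of the 6351 genes nearest to any region 2833 (44.6%).

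The largest ratios came from genes with very few Vip reads. Cacna2d2, a calcium channel accessory subunit gene, was at 344 RNA CPM in Sst nuclei (95% interval 299 to 394), 477 in Pvalb (428 to 531) and 15.0 in Vip (4.86 to 34.9). Its region lay 21.3 kb away and had 8.92 and 9.31 CPM in SST, 10.2 and 8.32 in PV and 1.99 and 2.24 in VIP. Nxph1, a gene of a secreted neurexin ligand, was at 470, 328 and 24.0 RNA CPM. Its region at the start had 8.40 and 9.31 CPM in SST, 23.9 and 22.8 in PV and 2.98 and 1.79 in VIP, and was called higher in PV (-1.39 ± 0.36, edgeR adjusted p = 0.0242). The RNA of Nxph1 was thus higher in Sst than in Pvalb nuclei, where the region was higher in PV.

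Satb1 was at 721, 479 and 108 RNA CPM in Sst, Pvalb and Vip nuclei. Nog, which codes for a secreted inhibitor of BMP signalling, was at 53.3, 252 and 8.99 RNA CPM, the last from 3 UMIs (1.85 to 26.3), and its region had 5.25 and 5.32 CPM in SST, 13.2 and 8.88 in PV and 0 in VIP. Gprc5b, an orphan receptor gene with regions at its start and 2.38 kb away, was at 150, 265 and 27.0. The next 6, with ratios of the lower value to Vip from 3.62 to 1.85, were those of Utrn, Pcnx2, 1190002N15Rik, Lypd6, Runx1t1 and Cacna1a. Lhx6, with 81 UMIs in all, was below the 200 needed to be ranked. The lower of its Sst and Pvalb values was 5.80 times Vip when Vip is set to 3 UMIs over the group. That is no lower bound, since the Pvalb interval starts at 36.7 RNA CPM and the Vip interval reaches 11.05.

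Other genes next to the regions had more RNA in Vip nuclei. Cnr1, the cannabinoid receptor gene, was at 401 and 207 RNA CPM in Sst and Pvalb nuclei and 3379 in Vip (3184 to 3582). Its region, 3.65 kb from the start, had 14.7 and 16.0 CPM in SST, 8.14 and 6.66 in PV and 1.99 and 3.13 in VIP, the opposite order. That region was near the threshold, at a ratio of 2.13, and overlapped an authors' peak in SST replicate 2 only. Slc24a3, a sodium and calcium exchanger gene, was at 362, 97.1 and 991 RNA CPM, with a region of 8.92, 11.1, 8.14 and 7.77 CPM in SST and PV and 3.48 and 1.79 in VIP. Npy2r was at 14.5 RNA CPM in Sst and 335 in Vip nuclei, with no UMI in Pvalb nuclei. The 4 other smallest ratios were those of Ap1s2, Cacna2d3, Sobp and Gng2, and in Cacna2d3 it was Pvalb, at 33.8 RNA CPM, that was low, against 275 in Sst and 234 in Vip.

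**Figure D5:**
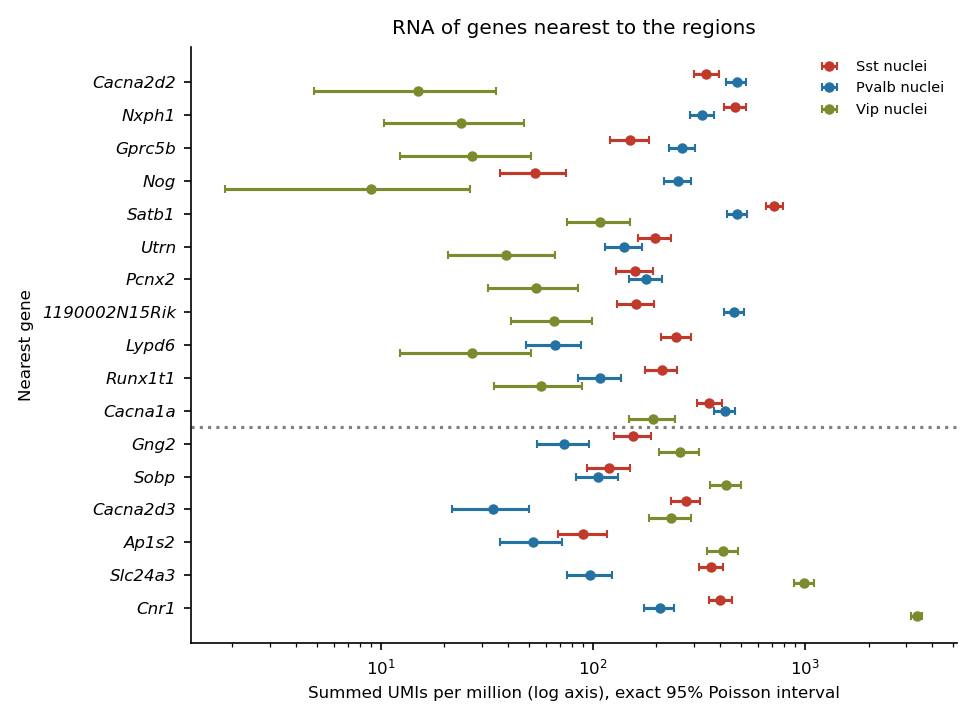
RNA CPM (UMIs per 1000000) in Sst, Pvalb and Vip nuclei of the genes nearest to the regions with 11 of the 12 largest (above the dotted line) and the 6 smallest ratios of the lower of Sst and Pvalb to Vip, with exact 95% Poisson intervals on a log axis. Cacna2d2, Nxph1 and Satb1 are lowest in Vip nuclei, and Cnr1 and Slc24a3 are highest there.

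The gene lists differed in how their RNA sat beside their regions. Of the 6 medial eminence regulators with a region, 4 had 50 UMIs, and in 3 of them, Lhx6 and Satb1 included, the lower of Sst and Pvalb was at least 2 times Vip. Bcl11b was at 141, 92.9 and 56.9 RNA CPM, and its Pvalb and Vip intervals overlapped. Its RNA was not confined to interneurons: in nuclei with Slc17a7 and no Gad1, Gad2 or driver UMI it was at 104 RNA CPM. Nkx2-1 had no UMI and Lhx8 1 UMI in these nuclei, although a region lay by each of them. Of the 2 caudal eminence regulators with a region, Nr2f2 was lower in Sst and Pvalb than in Vip nuclei, at 43.6, 8.45 and 270 RNA CPM. Nfia was at 17.8, 36.6 and 50.9, with overlapping intervals. Of the 10 potassium channel genes with a region and 50 UMIs, 2 passed 2 times Vip: Kcns3 was at 53.3, 59.1 and 15.0 RNA CPM and Kcnt1 at 54.9, 71.8 and 21.0, where the Sst and Vip intervals overlap. In the whole list of channels 4 of 30 genes did, and 3.75% of all genes. Kcnb2 was at 67.9, 76.0 and 213, and Kcnn2 at 53.3, 114 and 231. Tac1, the tachykinin gene, was at 21.0 and 229 RNA CPM in Sst and Pvalb nuclei with no UMI in Vip, and Syt2, a synaptotagmin gene, at 9.69, 548 and 24.0.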

How the data were processed

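The deposited values were used as follows. ATAC-Seq reads were trimmed, aligned to GRCm38 (mm10) and freed of duplicates by the authors (Trimmomatic 0.33 and Subread 1.4.6-p3, per the submitters' processing notes; whether cut positions were shifted is not given in the sources used here). The authors deposited whole read counts per region, without normalization, a 0 or 1 mark per region and library, and a mean phyloP score per region. The deposited peak lists give positions that MACS2 and HOMER shared within each library, with MACS2's −log10 q-value as the authors left it, which was not used; reference regions were the authors' merged union of such lists, those of other cortical Cre lines included. Some reference regions still overlap a neighbour. The single-nucleus files hold deposited UMI counts per gene and nucleus, and 1164 viral columns were left out.

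Counts were scaled to CPM of each library's sum, 1801883 to 2256073 reads; intervals cover counting error only. The rule, its gene lists and the classes compared were chosen with earlier results of these data known. Regions were placed on GENCODE vM21 genes. SST minus PV was fitted to all 6 libraries with edgeR 4.0.16 (TMM, filterByExpr, quasi-likelihood, Benjamini-Hochberg over all regions tested) and tested on simulated data for this comparison: over 20000 regions, 67 of 100 changed 4-fold and 17 of 100 changed 2-fold were called, with 5 unchanged ones. The simulation gave every region the same dispersion and VIP no difference, so these rates need not hold for the real libraries. Replicates are 2 animals a group. The p-values rest on a spread within groups that was pooled over all 6 libraries, VIP included, and partly shared across regions. SE was taken as the log2 difference over the root of F, and so rests on the same pooled spread.

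Nuclei with over 200 UMIs were grouped as Sst (Gad1 or Gad2 UMI, at least 3 Sst, no Pvalb or Vip), Pvalb (at least 1 Pvalb, at most 1 Sst, no Vip) and Vip (at least 1 Vip, at most 1 Sst, no Pvalb), with Gad1 or Gad2 in all 3, and their UMIs summed. Log2 ratios had 0.5 UMI added. No doublet caller was run; nuclei with UMIs of 2 drivers were left out except for 1 Sst UMI.

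Regions named: 12 by ratio, 5 by phyloP, 5 either side of the ratio of 2. Genes named: those nearest to them, 10 with most regions, all list genes with a region, and 12 largest and 6 smallest RNA ratios at 200 or more UMIs. Alternatives were DESeq2 1.42.0, other floors and ratios, left-out libraries, a replicate block, other nuclei groups and motif windows. A few named genes are not reported here.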

Additional observations from a re-analysis of the deposited data

How the results depend on the processing

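The number of regions moved with the rule's own settings: 3402 at a floor of 3 CPM, 552 at 10 CPM, 2709 at 1.5 times and 891 at 3 times the higher VIP value, 5509 with the replicate 1 and 3478 with the replicate 2 libraries alone, and 1891 to 3200 without a library in turn. With TMM effective library sizes it was 1224, all of them among the 1647. SST minus PV calls were 13 with DESeq2 (1.55% of all regions), 0 with no filter on low counts (0 of all regions), 14 to 217 without a library in turn (1.46% to 15.2% of all regions), and 62 with only the 4 SST and PV libraries (8.11%). Without a library, the lone sample left is assumed to vary like the other groups. Same-numbered libraries did not deviate together (correlations of 0.023, 0.030 and -0.037), so the numbers do not pair them; with a replicate block the calls were 74 (6.34% of all regions), and 1647 for VIP, and it changed no count of calls by over 1.5 times. The rule chose on the VIP contrast, so its calls are a description: 1555 with DESeq2, 1299 with no filter and 1415 to 1647 without a library in turn.

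The median distance was 16.3 kb to any annotated gene, 38.4 kb at a floor of 10 CPM and 56.3 kb at 3 times VIP, where 45.5% lay outside genes. Above a phyloP of 0.3 lay 30.3%, against 20.6% of all reference regions and 39.1% of the regions open in all 6 libraries. At a floor of 10 CPM 19.2% exceeded 0.5. In whole regions CAGCTG was present in 62.5%, against 41.1% of all regions, and TGANTCA in 34.2%, against 23.9%. The order of members and all regions turned for AGGTCA and ACAAAG. The RNA median stayed above 0 in all 9 alternatives, from 0.09 to 0.22, with 0.04 to 0.08 over genes nearest to any region. Depth limits single regions: a VIP median of 4 reads leaves a wide counting interval, and in 28 regions the VIP count was 0. For the moved values the cause was not tested.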
